A study of Mus musculus with 10 samples.

Results

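Chromatin accessibility around the genes of FGF ligands (Fgf1, Fgf2, Fgf7, Fgf9, Fgf10 and Fgf18), FGF receptors (Fgfr1 and Fgfr2) and the Sprouty inhibitors Spry1 and Spry2 was followed in the mouse epicardium and its derivatives by bulk ATAC-seq, in which a transposase cuts open DNA. Every peak whose summit lay inside 1 of these 10 genes or within 25 kb of it on mm10 was taken, whatever its strength. This gave 1125 of the 1071660 summits of 9 peak lists, in 179 of 184764 non-overlapping 501 bp regions centred on summits. Embryos, given in the labels as C57BL/6J, carried Rosa26tdTomato with Wt1CreERT2/+ from crosses of such males with Rosa26tdTomato or C57BL/6J females, and tamoxifen was given at E9.5, so that tdTomato marks cells that expressed Wt1 at that time and their descendants. Epicardial cells were sorted as CD31- tdTomato+ PDPN+ at E11.5 (3 libraries, each a pool of 6 hearts) and at E17.5 (3 libraries, each a pool of 4 hearts). Epicardium-derived cells (EPDCs) were sorted as CD31- tdTomato+ PDPN-, from E12.5 hearts (1 library) and from E13.5 hearts (2 libraries, from pools of 4 to 13 hearts by the labels, a wider range than in the study's methods). The hearts of a pool were littermates and the biological replicates of a stage came from separate pools. In each library a region was given the rank percentile of its strongest summit among all summits of that library, by the −log10 p of the peak caller. It was given 0 where no summit of the library lay inside it, written below as no peak, which does not show closed chromatin. Of the summits of each list 91.2% to 94.0% lay inside a region, so a peak may also lie just outside. In bulk samples, a weaker peak in every cell and a peak in fewer cells cannot be told apart.

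FGFs are secreted proteins that bind receptor tyrosine kinases together with heparan sulfate, and the receptors signal through adaptors to RAS and the MAP kinases. Sprouty genes are induced by this signal and their products dampen it. In the embryonic heart the epicardium is a source of FGFs that reach the myocardium, and FGF10 signalling through FGFR2 is known for its role in the growth of cardiac fibroblasts and their entry into the ventricular wall. Fgf7 and Fgf10 belong to one ligand subfamily, and Fgf9 and Fgf18 to others, while Fgf1 and Fgf2 encode FGFs that leave the cell without a classical signal peptide.

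The sequences below are those of the 201 bp around the summit of the regions that differed most, the first 2 in each direction of each comparison that lie on other chromosomes than that of Fgf1 and outside annotated exons. They were read from the RefSeq assembly GRCm38.p6, the build of the files, on the plus strand. Capitals mark matches, on either strand, to the motifs of T-box, AP-1, ETS, TEAD, GATA, basic helix-loop-helix (E-box), MAF and WT1 factors, whose letters follow the sequences except for the WT1 motif, which is given by name.
Fgf2 intron, peak in E17.5 epicardium, chr3:37360743-37360943, plus strand: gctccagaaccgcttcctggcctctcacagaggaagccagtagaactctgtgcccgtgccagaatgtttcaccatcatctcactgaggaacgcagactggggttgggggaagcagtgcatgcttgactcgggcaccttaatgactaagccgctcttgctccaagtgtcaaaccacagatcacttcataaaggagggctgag
Fgfr1 upstream, peak in E17.5 epicardium, chr8:25505919-25506119, plus strand: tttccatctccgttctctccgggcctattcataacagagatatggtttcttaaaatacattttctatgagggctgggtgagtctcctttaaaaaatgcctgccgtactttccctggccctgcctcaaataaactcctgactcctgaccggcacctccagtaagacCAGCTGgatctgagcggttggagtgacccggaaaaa
Fgfr2 intron, peak in E11.5 epicardium and EPDCs, chr7:130258328-130258528, plus strand: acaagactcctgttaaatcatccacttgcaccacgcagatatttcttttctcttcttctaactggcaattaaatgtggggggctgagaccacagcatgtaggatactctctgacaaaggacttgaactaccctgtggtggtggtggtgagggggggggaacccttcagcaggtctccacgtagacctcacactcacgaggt
Fgfr2 intron, peak in E11.5 epicardium and EPDCs (distal), chr7:130169848-130170048, plus strand: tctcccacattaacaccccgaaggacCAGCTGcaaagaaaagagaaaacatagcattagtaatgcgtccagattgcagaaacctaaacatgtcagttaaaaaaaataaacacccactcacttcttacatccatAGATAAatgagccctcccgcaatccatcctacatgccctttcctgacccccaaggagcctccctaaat
Spry2 upstream, peak in EPDCs, chr14:105921139-105921339, plus strand: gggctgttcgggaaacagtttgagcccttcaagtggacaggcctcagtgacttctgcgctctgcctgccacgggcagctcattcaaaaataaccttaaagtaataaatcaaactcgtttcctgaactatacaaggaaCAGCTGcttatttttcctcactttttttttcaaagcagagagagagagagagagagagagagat
Fgfr2 intron, peak in EPDCs, chr7:130258983-130259183, plus strand: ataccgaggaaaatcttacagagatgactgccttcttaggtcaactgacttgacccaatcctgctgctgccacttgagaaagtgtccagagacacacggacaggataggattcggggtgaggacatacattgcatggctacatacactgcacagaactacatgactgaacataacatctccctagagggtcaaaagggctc
Fgf18 intron, stronger in epicardium, chr11:33142860-33143060, plus strand: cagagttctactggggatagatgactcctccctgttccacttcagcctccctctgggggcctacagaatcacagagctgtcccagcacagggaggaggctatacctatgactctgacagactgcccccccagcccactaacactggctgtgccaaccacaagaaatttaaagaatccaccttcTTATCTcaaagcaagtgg
Fgf18 intron, peak in epicardium, chr11:33129419-33129619, plus strand: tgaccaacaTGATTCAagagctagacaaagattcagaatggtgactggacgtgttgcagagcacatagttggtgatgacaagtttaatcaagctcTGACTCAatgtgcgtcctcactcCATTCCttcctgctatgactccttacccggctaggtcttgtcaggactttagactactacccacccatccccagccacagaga

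A short sequence match is a description and not a binding site, and the motifs searched are short enough to occur often. In 3 of these 8 windows none was found. An E-box match, CAGCTG, occurred upstream of Fgfr1 and of Spry2 and in the distal Fgfr2 window, and the Fgf18 window with a peak in epicardium alone held 2 matches to the AP-1 letters TGANTCA and 1 to the TEAD letters, GGAATG. Over the whole 501 bp, 67 of the 179 regions of these genes (37.4%) held the E-box, against 33.5% of all regions, and 32 (17.9%) held the AP-1 letters, against 22.8%. The TEAD letters were in 59 regions (33.0%, against 33.1% of all). The GATA letters, AGATAA, were in 45 regions (25.1%, against 29.8%). The other motifs were rarer. The T-box letters searched, AGGTGTGA, were in 6 regions (3.35%, against 1.97%). The MAF letters, TGCTGAC, were in 17 regions (9.5%, against 11.2%). The ETS letters, CCGGAAG, were in 5 regions (2.79%, against 4.68%), and the WT1 motif was in 3 (1.68%, against 2.2%). The median GC content was 48.7% in the regions of these genes and 48.3% in all.

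The lists held between 94909 and 142743 summits, and the usual background at a position, solved from the fold enrichment and p of each summit, was between 2.07 and 10.9 fragments, the highest being that of E13.5 EPDC sample 2. EPDC lists also carried 252 to 268 lines on other sequences than chromosomes 1 to 19, X and Y, and the epicardial lists carried 0. Of 6430 promoters at or above the 90th percentile in all 3 EPDC libraries, 183 had no peak in any epicardial list, and of 6203 at that level in all 6 epicardial libraries, 0 lacked a peak in every EPDC list. Cell population, stage and list processing cannot be told apart between EPDCs and epicardium. The epicardial markers Wt1, Tbx18 and Tcf21 had promoter peaks in all 9 libraries, at the 89.6th to 98.4th percentile. The promoter of Upk3b, a mesothelial marker, ranged from 97.0 to 99.2 in epicardium and from 22.8 to 73.6 in EPDCs. Over the 12 epicardial marker promoters the summed percentile was 928 to 955 at E11.5, 1052 to 1094 at E17.5 and 754 to 846 in EPDCs. The higher sum at E17.5 came from Msln (0 in the E11.5 libraries, 77.4 to 88.7 at E17.5), Krt8 and Krt18, while Wt1, Upk3b, Upk1b and Bnc1 were lower at E17.5 and the median difference of the list was −2.2. The 10 mesenchymal marker promoters summed to 736 to 755 at E11.5, 621 to 740 at E17.5 and 755 to 834 in EPDCs. Of the endothelial markers 4 of 6, Pecam1, Cdh5, Tie1 and Emcn, were at 0 in every library, as were 4 of 5 blood markers (Ptprc, Spi1, Gata1 and Hbb-bt), and the summed level was 171 to 178 and 46.4 to 78.7. The 6 cardiomyocyte promoters summed to 225 to 250 at E11.5, 198 to 232 at E17.5 and 168 or more in EPDCs, with Myh6 at 0 in all 9 libraries. Tnnt2 (59.9 to 89.7) and Actn2 (77.8 to 94.5) had a promoter peak in every library and were lower at E17.5 than at E11.5, while Myl7 was higher at E17.5 (57.4 to 73.9, against 33.4 to 37.0) and at 0 in EPDCs. The part of other cells in the results was not tested.

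The regions were spread unevenly over the genes, from 9 each at Fgf7 and Spry1 to 33 at Fgf1 and 39 at Fgfr2, the longest gene. Of the 179 regions, 51 were called in all 9 libraries (28.5%, against 24.7% of all regions) and 32 in a single library (17.9%, against 16.6%). Regions within 1 kb of an annotated start of their gene were called in all 9 libraries in 15 of 27 cases, regions elsewhere in the gene in 20 of 86, and flanking regions in 16 of 66. Each library called between 50.3% and 69.8% of these regions, where the shares of all regions ranged from 44.2% to 64.6%. Other genes start inside some windows, Nudt6 and Spata5 next to Fgf2, Npm1 next to Fgf18, Letm2 next to Fgfr1 and the model Gm5820 over Fgf1, and the whole of Fgf1 and of Fgf7 is overlapped by a further gene (Arhgap26 and Fam227b), so a peak there cannot be assigned to one gene.

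**Figure D1:**
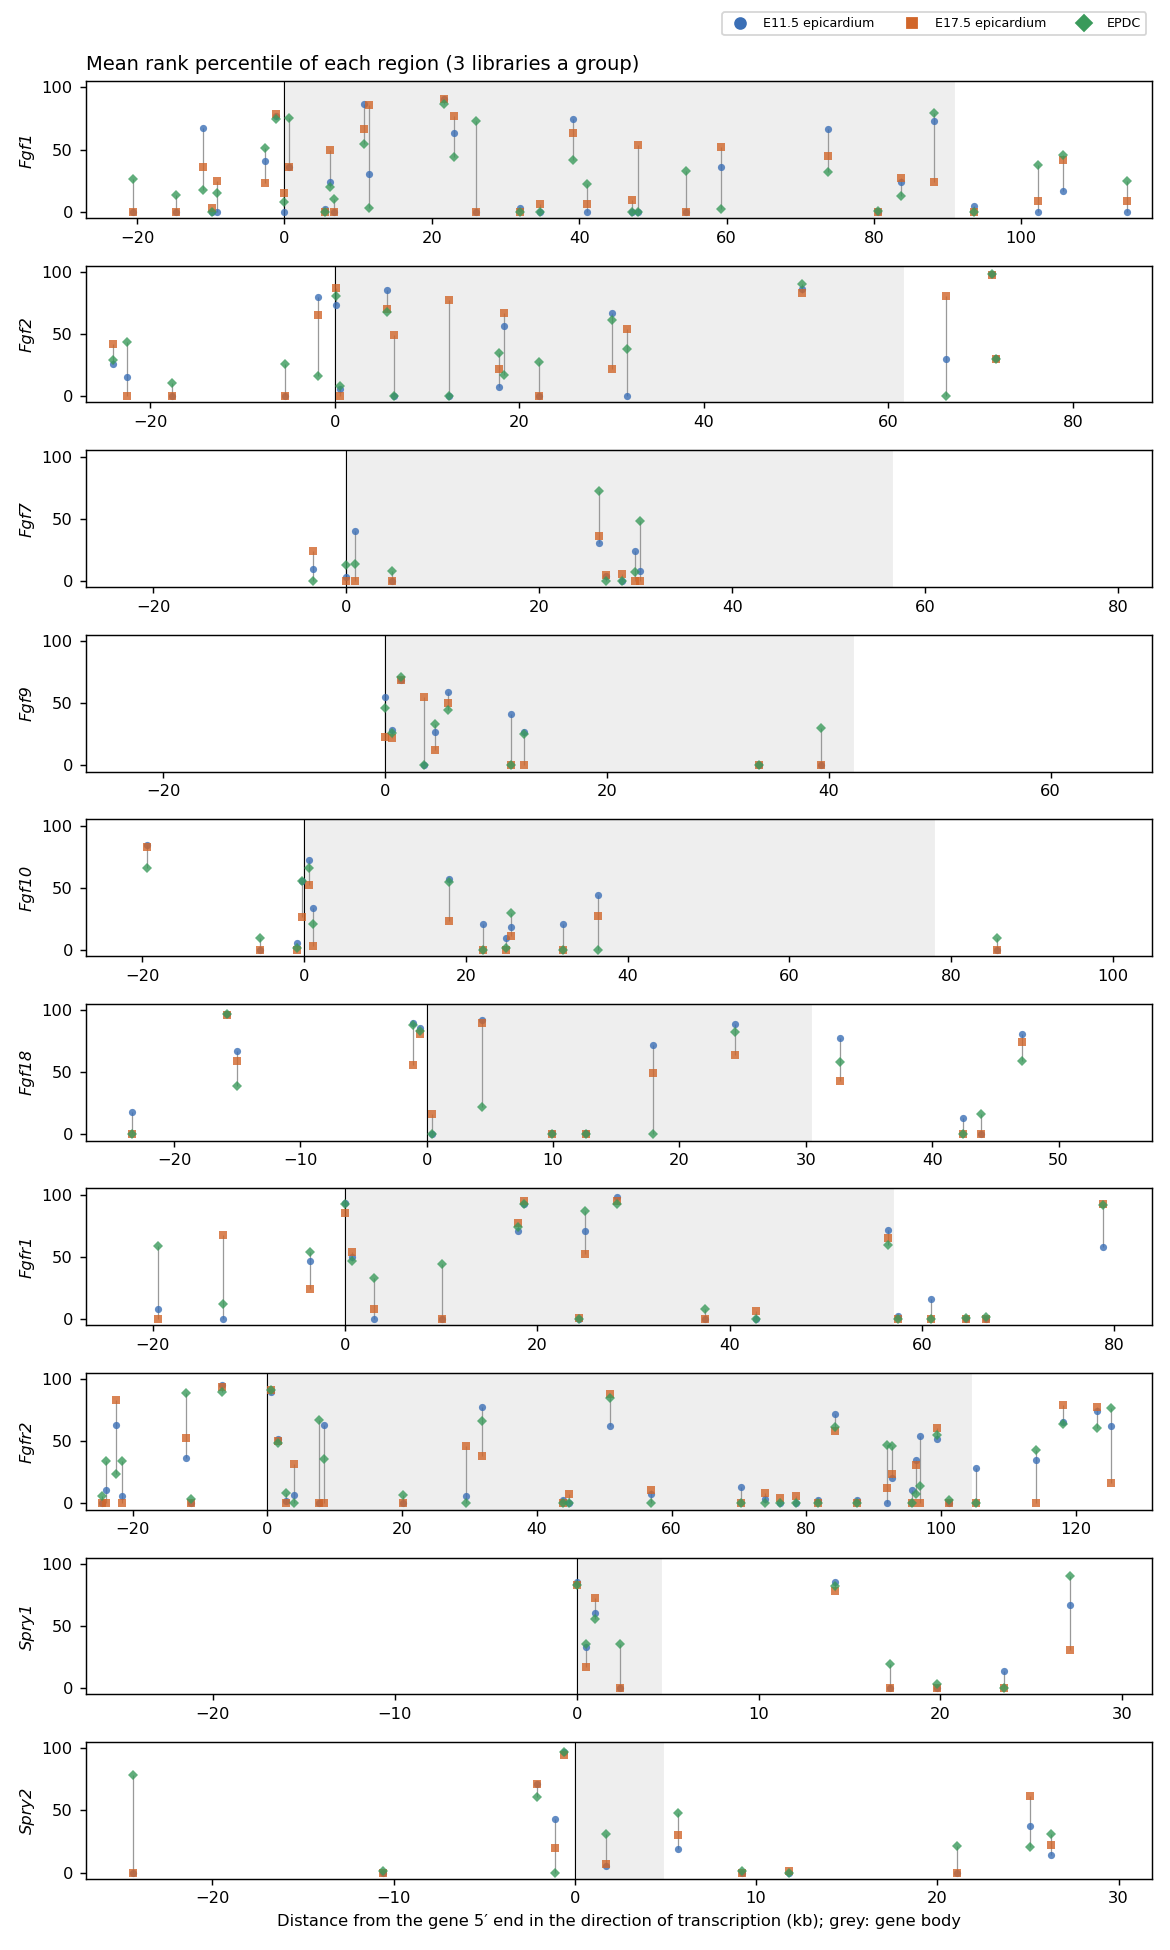
Rank percentile (0 to 100, mean of 3 libraries) of each of the 179 regions. The horizontal axis is the distance in kb from the 5′ end of its gene, in the direction of transcription. Blue circles are E11.5 epicardium, orange squares E17.5 epicardium and green diamonds EPDCs, and grey marks the gene body. A value of 0 means that no library of the group had a summit in the region. Many distal regions stand at 0 in 1 or 2 groups, and near the start of Fgf7 the E17.5 value is 0.

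The first comparison, E17.5 with E11.5 epicardium, asks how accessibility at these genes changed as the epicardium matured. Of 149 regions called in at least 1 epicardial library, 24 were higher at E17.5 in all 3 libraries than in any E11.5 library, against 12.6% of all regions tested, and 35 were lower, against 31.5% of all. The shares were 16.1% and 23.5%. The median difference was −2.13 percentile points over these regions and −4.62 over all 160374. With 3 libraries against 3 the exact two-sided permutation test cannot give a p below 0.10, so 0 regions pass at an unadjusted 0.05 and 0 after Benjamini-Hochberg adjustment. By limma on the log2 scores, at an adjusted p under 0.05, 24 regions were higher (13.3% of all regions tested) and 22 lower (23.4% of all). Among them were 21 of the 24 and 22 of the 35 whose groups did not overlap. A region without a peak entered limma at a log2 score of 0, so a group without any peak had no spread. Such a region is tested through the peaks of the other group alone, and its small p does not measure a spread in both groups. The balance moved with the scale. With equal numbers of top summits 32 were higher and 23 lower of 120 (21.2% and 24.4% of all regions were). On the log2 of the depth-normalized score the counts were 32 and 30 (17.7% and 28.1% of all), and by rank of fold enrichment 25 and 27 (13.6% and 28.3% of all). By fragments over background, in the 63 regions called in every library compared, 29 were higher and 7 lower (44% and 18.1% of all). The shares over all regions moved in the same directions. On the log2 score the median difference was −0.29 over all regions and −0.03 over those of these genes. Without E17.5 replicate 1, the list with the fewest summits, 37 regions were higher, against 19.4% of all.

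Peaks present at one stage alone were less frequent. In 9 regions (6.04%, against 5.06% of all) all 3 E17.5 libraries and no E11.5 library had a peak, and in 10 (6.71%, against 12% of all) the reverse held. The 9 lay at Fgf1 and Fgf2 (3 each) and at Fgf9, Fgfr1 and Fgfr2 (1 each). The 10 lay at Fgfr2 (4), at Fgf7 and Fgf10 (2 each) and at Fgf2 and Fgf9 (1 each). Counting summits of the whole window of each gene, per 100000 summits of the library, Fgf1, Fgf2 and Spry2 were higher at E17.5 (28.3% of 18764 genes were) and Fgf7 was lower (14.4% were). Without E17.5 replicate 2 the groups did not overlap at 7 of the 10 windows, in place of 4, with 5 higher and 2 lower (37% and 17.6% of all windows). Without E11.5 replicate 3 they did not overlap at 7 either, with 4 higher and 3 lower (33.5% and 17.3% of all).

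**Figure D2:**
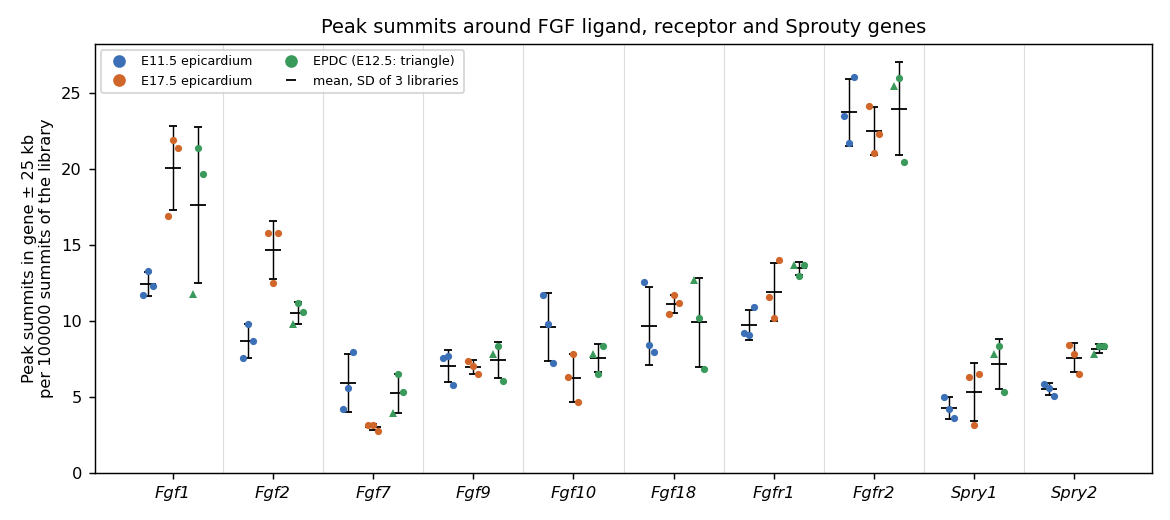
Peak summits inside each gene or within 25 kb of it, per 100000 summits of the library (vertical axis), for the 10 genes; each point is a library, the bar its group's mean with the SD of 3 libraries, and the triangle the E12.5 EPDC library. The E17.5 libraries of Fgf1 lie between 16.9 and 21.9 and those of E11.5 between 11.7 and 13.3, and the E12.5 EPDC library of Fgf1 (11.8) lies apart from the E13.5 libraries (21.4 and 19.7).

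Fgf2 (chr3:37348477-37410106, plus strand), which encodes a ligand of several FGF receptors, had 5 of its 19 regions higher at E17.5, the promoter among them, and 4 lower, where 12.6% and 31.5% of all regions were. By limma all 5 and 2 of the 4 were called. The strongest summit within 1 kb of its 5′ end stood at percentile 68.6, 71.8 and 79.6 in the E11.5 libraries and at 83.1, 89.8 and 88.4 in the E17.5 libraries. All 3 E17.5 libraries were above the E11.5 libraries, by 13.8 percentile points in the mean (73.4 ± 5.64 and 87.1 ± 3.52, SD, n = 3 each, limma adjusted p = 0.00127 for the region). The intron region 12.4 kb into the gene (chr3:37360593-37361093), whose sequence is given above, was at 73.2, 81.3 and 76.7 at E17.5 and had no peak in any E11.5 or EPDC library. There the E17.5 summits held 47, 98 and 74 fragments, at fold enrichments of 13.3, 15.5 and 14.7 over background. The limma adjusted p was 7.76e-06, with every E11.5 score at 0 and so without spread. A second intron region, at 6.4 kb, was at 43.8, 54.0 and 50.9 at E17.5 and at 0 in the other 6 libraries. The region at 31.7 kb was at 45.2, 71.5 and 46.9 at E17.5, at 0 in the E11.5 libraries, and at 52.2 and 62.0 in the E13.5 EPDC libraries. Outside the gene, in an intron of the neighbour Nudt6 at 66.3 kb, the E17.5 libraries stood at 78.0, 84.5 and 79.4, the E11.5 libraries at 49.9, 0 and 39.5 and the EPDC libraries at 0. These 4 distal regions were thus higher at E17.5, and 4 others were lower. The intron region at 30.1 kb was at 65.3, 65.6 and 69.9 at E11.5 and at 38.9, 0 and 26.2 at E17.5 (limma adjusted p = 0.0276), and the region at 5.7 kb went from 84.6, 83.6 and 88.3 to 63.4, 70.8 and 75.5, without overlap (limma adjusted p = 0.0995). Upstream, the weak region at 22.5 kb was at 4.57, 24.3 and 16.7 at E11.5 and had no peak at E17.5. Its limma adjusted p was 0.0155, with every E17.5 score at 0. Also upstream, the region at 1.8 kb, described with the EPDCs, was lower by rank (limma adjusted p = 0.282). The strongest region of the window, at 71.2 kb in a coding exon of Nudt6 and 0.208 kb from the start of Spata5, was at 96.8 to 99.1 in all 9 libraries.

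Fgf1, on chromosome 18, minus strand, encodes the ligand that binds all FGF receptors, and 7 of its 33 regions were higher and 4 lower at E17.5, where 12.6% and 31.5% of all regions were. By limma all 7 and 2 of the 4 were called. Its region 48.0 kb from the 5′ end, in a 5′ UTR exon near another annotated start, was at 26.6, 71.1 and 63.3 at E17.5 and at 0 in all other libraries. The region 11465 bp from the 5′ end stood at 0, 44.8 and 46.3 at E11.5 and at 87.1, 85.1 and 86.3 at E17.5, without overlap. That difference depends on where summits fall: the region 10.8 kb from the 5′ end, beside it, was at 86.8, 87.8 and 84.6 at E11.5 and at 60.4, 66.9 and 71.7 at E17.5, and with overlap of intervals in place of summits the difference at that region was −0.25. The region at 88.2 kb, in the 3′ UTR exon of Fgf1 and an intron of Arhgap26, went from 66.5, 74.5 and 77.8 to 46.1, 25.5 and 0. The EPDC libraries there, at 76.0, 81.5 and 81.3, were close to those of E11.5. The strongest region outside the promoter, at 21.6 kb, was at 85.4 to 93.2 in all 9 libraries.

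Fgf7 and Fgf10 encode paracrine ligands of FGFR2, and both lost promoter rank at E17.5. The Fgf7 promoter region (chr2:126035307-126035807, in the 5′ UTR exon) stood at 44.0, 34.3 and 41.2 at E11.5 and had no peak in any E17.5 library. The E11.5 summits held 35, 32 and 31 fragments, and the limma adjusted p was 0.000300, with every E17.5 score at 0. In EPDCs this region was at 19.5, 5.16 and 14.8. At E11.5 the Fgf7 promoter was a weak peak, below the median of its libraries. The region at 29.9 kb, in an intron, was at 22.9, 22.0 and 26.6 at E11.5 and also had no peak at E17.5. The whole Fgf7 window held 4.19, 5.60 and 7.98 summits per 100000 at E11.5, against 3.16, 3.13 and 2.79 at E17.5, and with equal numbers of top summits these groups overlapped.

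The Fgf10 promoter region (chr13:118715010-118715510) was at 68.8, 74.0 and 73.9 at E11.5, at 54.2, 43.1 and 60.3 at E17.5 and at 64.4, 59.0 and 73.5 in EPDCs. The E17.5 libraries lay below all E11.5 libraries and fell by 19.7 percentile points in the mean, with a limma adjusted p of 0.0704. Ranked by fold enrichment, which was 6.00 to 7.64 at E11.5 and 6.33 to 8.81 at E17.5, the groups overlapped, at a difference of −0.17. A second Fgf10 region close to the start, at 0.2 kb upstream, fell from 51.5, 54.2 and 59.5 to 36.0, 24.4 and 18 (limma adjusted p = 0.0346). Farther into the gene, the intron region at 17.9 kb went from 45.7, 63.7 and 61.6 to 4.55, 27.8 and 38.0 (limma adjusted p = 0.0177). Weaker regions at 22.1 and 32.0 kb had peaks in the 3 E11.5 libraries alone, at 8.34 to 32.3 and 17 to 26.0. Of the 13 Fgf10 regions, 5 were lower and 0 higher at E17.5, where 31.5% of all regions were lower and 12.6% higher, and limma called 4 of the 5. The strongest, 19.4 kb upstream (chr13:118695075-118695575), did not separate the epicardial stages, with E11.5 values of 83.9, 84.4 and 83.7 and E17.5 values of 86.2, 80.9 and 80.4.

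Fgf9 encodes an epicardial and endocardial mitogen of the embryonic myocardium. At its gene 5′ end the promoter value was 47.5, 61.6 and 56.5 at E11.5, against 20.1, 45.3 and 18.6 at E17.5, which do not overlap. That 5′ end is the first of 4 annotated starts. With any of them the difference was −0.31, because the strongest promoter region, 1.4 kb into the gene, was level: 67.5, 70.0 and 68.3 at E11.5, 66.0, 70.1 and 68.8 at E17.5, and 68.9, 67.1 and 76.9 in EPDCs. An intron region at 3.5 kb (chr14:58073947-58074447) had peaks in the E17.5 libraries alone, at 56.0, 52.4 and 55.8 (73, 113 and 114 fragments). Another, at 11.4 kb, had peaks in the E11.5 libraries alone, at 25.8, 55.4 and 43.8. The limma adjusted p-values were 3.31e-05 and 0.000204, in each case with every score of the other stage at 0 and so without spread.

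Fgf18 encodes a ligand best known from skeletal and lung development. Of its 15 regions, 6 were lower and 0 higher at E17.5 by rank, where 31.5% of all regions were lower, and limma called 2 of the 6. Among the other 4, the regions 4.4 kb into the gene and 15.8 kb upstream had limma log2 differences of 0.09 and 0.07, opposite in sign to their rank. Its promoter values overlapped, the E11.5 libraries being at 89.3, 85.7 and 84.7 and the E17.5 libraries at 78.6, 85.8 and 87.0. The intron region at 24.4 kb fell from 87.6, 92.8 and 86.4 to 56.9, 74.5 and 59.7 (limma adjusted p = 0.000771), and the region at 32.7 kb, beyond the 3′ end, from 71.6, 76.9 and 83.1 to 48.3, 50.3 and 30.1 (limma adjusted p = 0.00413). Another of the 6, 1.1 kb upstream, owes most of its mean difference to 1 library: it was at 79.4, 88.0 and 0 at E17.5, where E11.5 had 89.0 to 89.9. The strongest region of the window is 15.8 kb upstream in the 5′ UTR exon of Npm1, at 94.9 to 97.7 in all 9 libraries.

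Both receptor promoters were among the strong peaks at all stages. The Fgfr1 promoter (chr8:25518509-25519009) was at 91.5, 93.7 and 94.2 at E11.5 and at 80.0, 90 and 86.7 at E17.5, lower without overlap (limma adjusted p = 0.0429), and by rank of fold enrichment the groups overlapped. The Fgfr2 promoter (chr7:130266086-130266586) was at 90.2, 91.0 and 87.3 at E11.5 and at 91.4, 93.3 and 90.2 at E17.5, with overlap of the ranks, while limma called it higher (log2 difference 0.54, adjusted p = 0.0154). Upstream of Fgfr1 at 12.7 kb, in the intergenic region whose sequence is given above, no E11.5 library had a peak. The E17.5 libraries there stood at 57.3, 76.4 and 69.2 with 29, 72 and 55 fragments. The limma adjusted p was 0.000178, with every E11.5 score at 0. Of the EPDC libraries only E13.5 sample 2 had a peak there, at 36.9. The Fgfr1 intron held a pair of strong regions, at 18.6 and 28.3 kb, at 91.2 to 96.8 and 91.8 to 98.5 in all 9 libraries. The first was higher at E17.5 by 2.63 percentile points (limma adjusted p = 0.000682) and the other fell by 3.07 (limma adjusted p = 0.271).

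Fgfr2, minus strand, had 6 of its 39 regions higher and 8 lower at E17.5, where 12.6% and 31.5% of all regions were, and limma called all 6 and 6 of the 8. The largest fall was 8.4 kb into the gene (chr7:130258178-130258678), at 63.1, 62.3 and 62.9 at E11.5 and with no peak at E17.5. The E11.5 summits held 71, 73 and 64 fragments. The limma adjusted p was 3.46e-05, with every E17.5 score at 0 and so without spread. The EPDC libraries were between the stages there, at 22.7, 30.3 and 54.0. The intron region at 96.9 kb was at 49.9, 59.8 and 54.2 at E11.5 and without a peak at E17.5, and that at 125.2 kb, beyond the 3′ end, fell from 56.3, 69.5 and 62.3 to 9.37, 8.86 and 30.4. In the middle of the gene, the region at 50.9 kb rose from 52.6, 67.8 and 67.3 to 88.6, 90.9 and 85.7 (limma adjusted p = 0.000871), while that at 31.8 kb fell from 77.5, 83.8 and 72.7 to 52.9, 30.4 and 32.1 (limma adjusted p = 0.00590). Intronic regions of one gene thus moved in opposite directions. The region at 29.4 kb was at 0.519, 10.6 and 7.11 at E11.5 and at 44.7, 56.0 and 38.1 at E17.5, and it had no peak in EPDCs.

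The Sprouty genes had promoters that differed little between the stages. Spry1 was at 84.8, 84.4 and 87.3 at E11.5 and at 83.5, 81.2 and 85.1 at E17.5, and Spry2 at 94.6, 97.7 and 98.1 and at 95.8, 95.4 and 92.6, both with overlap. The Spry2 promoter held the most fragments among those of the 10 genes, from 279 to 1139 at the summit. The window of Spry2 had 5.86, 5.60 and 5.08 summits per 100000 at E11.5, against 8.43, 7.82 and 6.52 at E17.5, which do not overlap, and rests on 7 to 10 summits a library. The Spry1 region 27.1 kb downstream of its start (beyond the 3′ end) was lower at E17.5, at 38.7, 23.1 and 29.6 where E11.5 had 64.1, 70.9 and 64.4 (limma adjusted p = 0.00358). By mean over the 9 libraries, the strongest Spry1 region outside the promoter lay at 14.2 kb. It was at 83.6, 86.7 and 85.0 at E11.5 and at 77.3, 75.3 and 80.6 at E17.5 (limma adjusted p = 0.362). In EPDCs it was at 79.5 to 84.4, below the region at 27.1 kb (88.4, 91.4 and 91.9). By the same mean, that of Spry2, 2.1 kb upstream, was at 69.5 to 72.5 at E11.5 and 67.8 to 75.9 at E17.5, with overlap. In EPDCs it was at 54.2, 58.7 and 68.6, below the Spry2 region 24.4 kb upstream (72.0, 79.3 and 82.9).

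**Figure D3:**
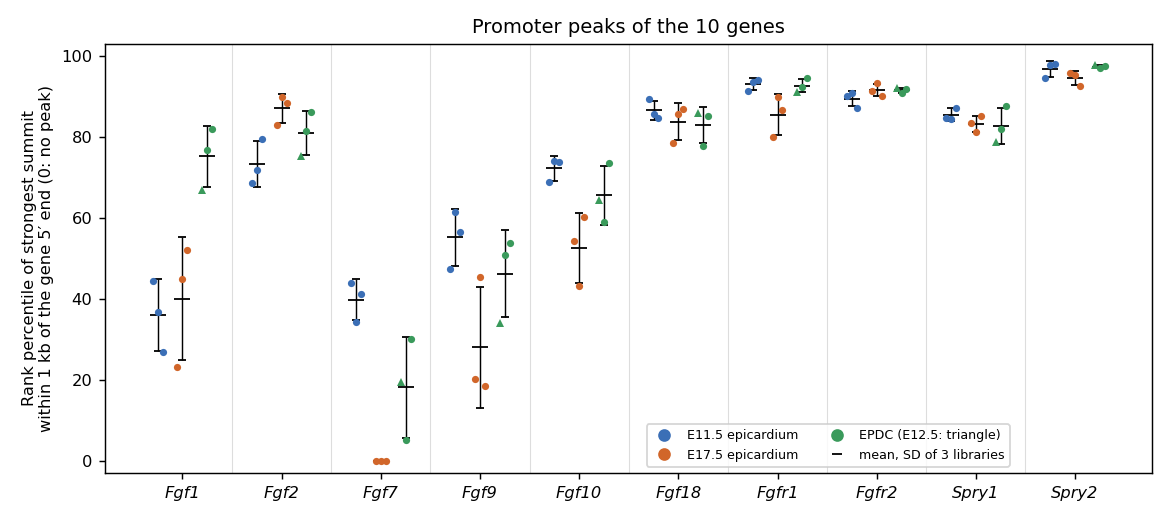
Rank percentile of the strongest summit within 1 kb of the 5′ end of each of the 10 genes (vertical axis, 0 where no peak was called); points are libraries, bars the mean and SD of 3 libraries, and the triangle is the E12.5 EPDC library. Fgf7 is at 0 in the 3 E17.5 libraries, Fgf2 is higher at E17.5 (83.1 to 89.8) than at E11.5 (68.6 to 79.6), and the Fgf1 EPDC values (67.0 to 81.9) lie above all 6 epicardial ones.

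Over the promoters of the 10 genes, 1 was higher at E17.5 (Fgf2, against 11.6% of 14195 promoters) and 4 were lower (Fgf7, Fgf9, Fgf10 and Fgfr1, against 25.7%). In a wider list of the pathway, 56 of 59 further genes had a promoter peak in the epicardium, 8 of which were higher (14.3%) and 19 lower (33.9%), with a median difference of −1.14 percentile points, where all promoters had −0.49. Among promoters whose groups did not overlap, the highest rises were those of Fgf21, a ligand with endocrine action, from 45.7, 56.2 and 66.0 to 76.2, 86.0 and 81.4, of Fgfbp1, an FGF carrier protein, from 0 in all 3 to 6.24, 16.0 and 25.6, and of Fgf8, from 55.0, 56.8 and 39.6 to 63.4, 66.9 and 64.2. The deepest falls, after which came Fgf7, were those of Fgf14, an intracellular FGF homologue, from 65.6, 62.8 and 71.3 to 11.7, 7.95 and 6.39, and of Fgf20, from 71.6, 63.4 and 75.6 to 22.9, 34.0 and 34.0. By role, with the 10 genes counted in, 4 promoters of FGF genes were higher and 8 lower of 20. These 20 include intracellular homologues, of which Fgf12 and Fgf14 were among the 8. Of 7 receptors and co-receptors 0 were higher and 4 lower (Fgfr1, Fgfr3, Kl and Klb). Of 14 signal transducers 2 were higher and 3 lower, and of 8 feedback inhibitors 0 were higher and 5 lower. Among 5 transcription factors induced by the pathway 1 was higher (Fosl1) and 2 lower (Etv1 and Etv4), and among 12 heparan sulfate and other cofactors 2 were higher and 1 lower.

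The second comparison, EPDCs with the 6 epicardial libraries, asks which regions differ between the sorted populations, whose stages also differ. Of the 179 regions, 21 were higher in all 3 EPDC libraries than in any epicardial one, against 9.38% of all 184764 regions, and 13 were lower, against 8.09%. The shares were 11.7% and 7.26%, and the median difference was 0.01 percentile points over these regions and −1.77 over all. The exact two-sided permutation test gave p = 0.0119 for 28 of the 34 regions whose groups do not overlap. That is the smallest p that 3 libraries against 6 allow. The Benjamini-Hochberg adjusted p was then 0.0862, so 0 regions passed 0.05 after adjustment. By limma, at an adjusted p under 0.05, 33 were higher (16.6% of all regions were) and 34 lower (23.3% were). By fragments over background, in the 51 regions called in all 9 libraries, 5 were higher and 14 lower, against 6.03% and 25.7% of all. The E12.5 library, which precedes the others by a day, weighs on the count: without it 41 regions were higher, against 17% of all. Against E11.5 epicardium alone 26 of 164 were higher and 32 lower (12% and 27.1% of all regions were), and against E17.5 epicardium alone 38 and 27 of 160 (22.5% and 18.6% of all). Peaks in all 3 EPDC and no epicardial library numbered 7 (3.91%, against 3.23% of all), and peaks in all 6 epicardial and no EPDC library 3 (1.68%, against 2.12%).

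**Figure D4:**
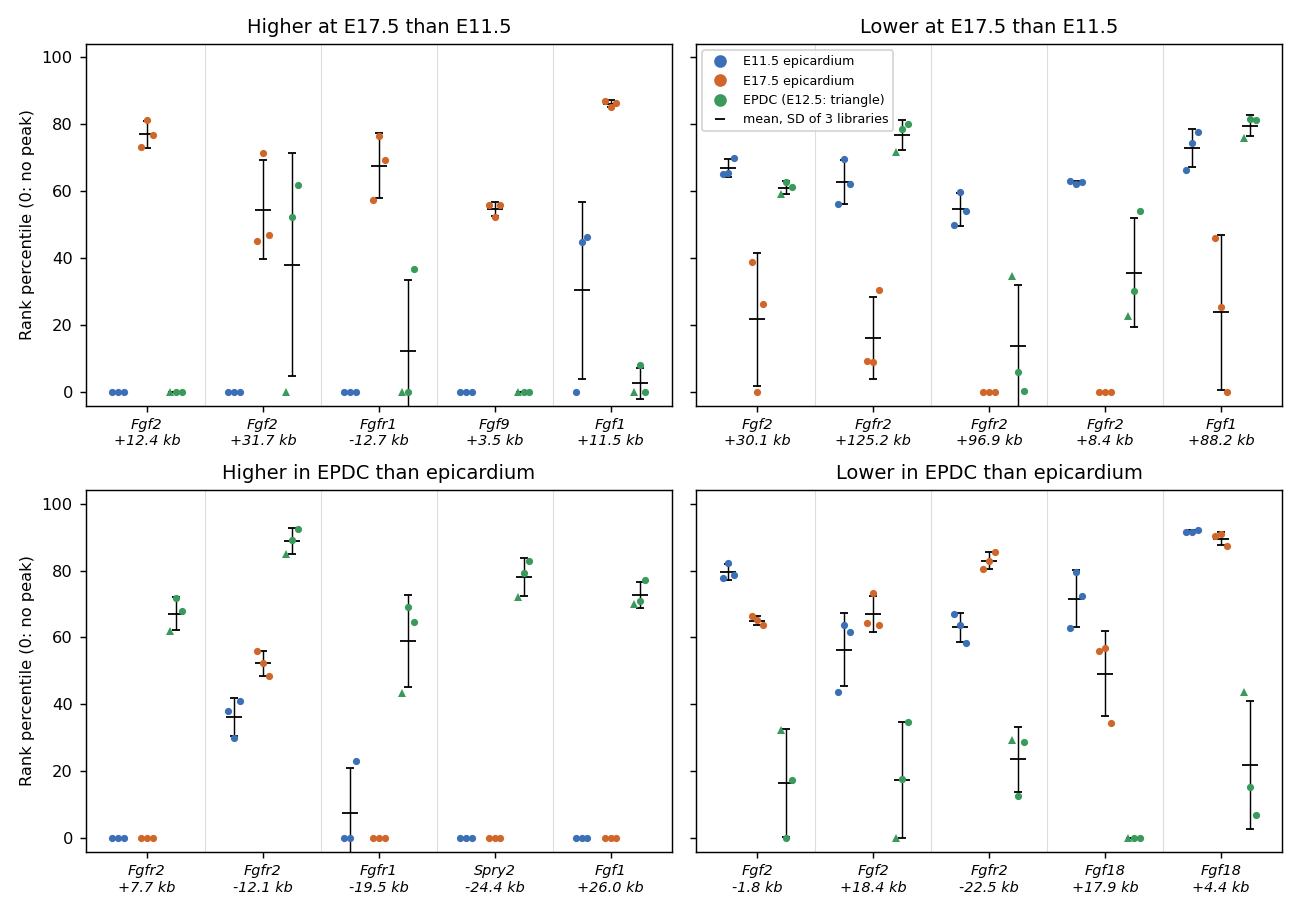
For each direction and comparison, the 5 regions with the largest mean difference are shown, among those whose groups do not overlap. The vertical axis is the rank percentile, 0 where no summit lay in the region. Regions are named by gene and distance in kb from its 5′ end. Points are libraries, bars the mean and SD of 3 libraries, and the triangle is the E12.5 EPDC library. In the upper panels E11.5 and E17.5 libraries separate, and in the lower panels the 3 EPDC libraries separate from all 6 epicardial ones, as at Spry2 −24.4 kb, where they stand at 72.0 to 82.9 and the epicardial libraries at 0.

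The regions with peaks in EPDCs alone lay at Fgf1 and Spry1 (2 each) and at Fgf9, Fgfr2 and Spry2 (1 each). The strongest was 24.4 kb upstream of Spry2 (chr14:105920989-105921489), at 72.0 in the E12.5 and 79.3 and 82.9 in the E13.5 libraries. Its summits held 75, 138 and 351 fragments, at fold enrichments of 9.81, 9.31 and 7.84. The limma adjusted p was 1.74e-06, with every epicardial score at 0 and so without spread. The nearest region with an epicardial peak was centred 22.3 kb away. The Fgfr2 intron region at 7.7 kb (chr7:130258833-130259333) was at 61.9, 71.7 and 67.9. The nearest region with an epicardial peak, centred 0.655 kb away, was its neighbour, which had no peak at E17.5. In Fgf1 the intron region at 26.0 kb was at 70.1, 70.9 and 77.1, and the nearest region with an epicardial peak was centred 3.06 kb away. The others were weaker, at 5.71 to 46.1. Whether any of them lies in a stretch that the processing of the epicardial lists left out was not tested.

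Other regions were present in both populations and stronger in EPDCs. At 12.1 kb upstream of Fgfr2 (chr7:130278640-130279140) the EPDC libraries stood at 84.8, 89.1 and 92.4, the E11.5 libraries at 37.9, 30.0 and 41.0 and the E17.5 libraries at 55.9, 52.3 and 48.6 (limma adjusted p = 2.07e-05). The fold enrichment was 14.5 to 16.6 in EPDCs and 4.78 to 8.70 in epicardium. At 27.1 kb from the start of Spry1 the EPDC libraries were at 88.4, 91.4 and 91.9, above E11.5 (64.1 to 70.9) and E17.5 (23.1 to 38.7), with a limma adjusted p of 2.19e-05. The Fgf7 intron region at 26.2 kb (chr2:126060640-126061140) was the strongest of that gene in EPDCs, at 68.9, 69.1 and 78.1. In the epicardium it was at 14.3 to 44.4 (limma adjusted p = 0.000410). Thus the Fgf7 window had its strongest peak in EPDCs within the gene and not at the promoter. Upstream of Fgfr1 by 19.5 kb the EPDC libraries were at 43.3, 69.1 and 64.6, and of the epicardial libraries only E11.5 replicate 3 had a peak, at 23.0. The Fgfr1 intron region at 24.9 kb was at 85.0, 85.8 and 89.3 in EPDCs and at 41.9 to 76.9 in the epicardium (limma adjusted p = 0.000483).

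Regions weaker in EPDCs were led by introns of Fgf18. The region 4.4 kb into that gene (chr11:33142710-33143210) was at 91.6, 91.5 and 92.0 at E11.5, at 90.4, 90.9 and 87.4 at E17.5, and at 43.6, 15.4 and 7.11 in EPDCs (limma adjusted p = 2.56e-05). Fragments at the summit were 192 to 311 in epicardium and 60, 45 and 86 in EPDCs. The Fgf18 region at 17.9 kb (chr11:33129269-33129769) had a peak in all 6 epicardial libraries, at 34.5 to 79.7, and in no EPDC library. The promoter of Fgf18 itself did not separate the groups, at 85.9, 77.8 and 85.1 in EPDCs and at 78.6 to 89.3 in the epicardium. At Fgf2 the region 1.8 kb upstream (chr3:37346444-37346944) was at 77.8, 82.2 and 78.7 at E11.5, at 66.4, 65.2 and 63.6 at E17.5 and at 32.4, 0 and 17.3 in EPDCs (limma adjusted p = 0.000275). The Fgf2 intron region at 18.4 kb was at 43.8 to 73.2 in epicardium and at 0, 17.7 and 34.7 in EPDCs, and with overlap of intervals the groups overlapped. At 22.5 kb upstream of Fgfr2 (chr7:130289012-130289512) the levels were 58.5 to 67.1 at E11.5, 80.5 to 85.6 at E17.5 and at most 29.5 in EPDCs (limma adjusted p = 3.72e-05). The 2 upstream regions of Fgfr2 at 12.1 and 22.5 kb were both higher at E17.5 than at E11.5 and differed from EPDCs in opposite directions. The strongest Fgfr2 region outside the promoter, 6.7 kb upstream (chr7:130273273-130273773), was at 90.2, 89.6 and 89.7 in EPDCs, below 95.1, 95.3 and 96.7 at E11.5 and below the E17.5 values of 94.1, 93.7 and 93.8 (limma adjusted p = 0.00735). For Fgf10 the strongest region, 19.4 kb upstream, was at 67.5, 62.7 and 67.5 in EPDCs and at 80.4 to 86.2 in the epicardium (limma adjusted p = 0.000981), and the intron region at 36.4 kb was at 22.9 to 52.0 in epicardium and had no EPDC peak.

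At promoters, only Fgf1 of the 10 genes differed between EPDCs and epicardium without overlap, and in the higher direction (6.79% of 14692 promoters were higher and 9.68% lower). Its 5′ end value was 67.0, 76.8 and 81.9 in EPDCs and 23.1 to 52.2 in the epicardium, with 69, 126 and 333 fragments in EPDCs and 25 to 58 in the epicardium (exact permutation p = 0.0119, adjusted p = 0.0908). That 5′ end belongs to a predicted transcript. With any annotated start the direction reversed, to −10.4 percentile points, because another annotated start lies between the regions at 10.8 kb and 11465 bp described above. The epicardial values were then those of the first region at E11.5 (86.8, 87.8 and 84.6) and of the second at E17.5 (87.1, 85.1 and 86.3), and the EPDC values were 69.0 at the first region in the E12.5 library and 76.8 and 81.9 at the 5′ end in the E13.5 libraries. The counts of summits per gene window did not separate the populations for any of the 10 genes, where 5.89% of 19173 genes were higher and 8.24% lower. Without E13.5 EPDC sample 2 there were 2 (Fgf9 and Spry1, both higher, as were 9.35% of all windows). Without E17.5 replicate 1 or without E17.5 replicate 3 there was 1, in each case higher, as were 6.96% and 6.52% of all windows. In exact permutation tests the windows of Spry1 and Fgfr1 had p = 0.0595 and p = 0.0714 (adjusted p = 0.262 and 0.286).

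Of the 59 further pathway genes, 57 had a promoter peak in some library, and 7 were higher (12.3%, against 6.79% of all promoters) and 5 lower (8.77%, against 9.68%) in EPDCs, with a median difference of 0.13 percentile points, against −0.41 over all promoters. Among promoters whose groups did not overlap, the largest difference was at Map2k1, which encodes a MAP kinase kinase used by most cells, at 95.8, 96.8 and 97.8 in EPDCs and at 0 in all 6 epicardial lists. Such an absence belongs to the 183 promoters described above, and without Map2k1 6 of 56 were higher (10.7%). Etv1, a transcription factor induced by FGF signals, was at 74.0, 83.4 and 89.5 in EPDCs and at 50.2 to 72.5 in epicardium. The 3 largest differences in the lower direction, among those promoters, were at Fgf21, at 8.44, 24.0 and 23.3 in EPDCs and 45.7 to 86.0 in epicardium, Flrt2, which encodes a membrane protein of a family that binds FGF receptors, at 43.9, 17.8 and 31.8 against 50.9 to 69.3, and Frs3, a receptor adaptor, at 89.9, 92.8 and 95.0 against 96.0 to 97.7. By role, with the 10 genes counted in, 2 FGF genes (Fgf1 and Fgf16) were higher and 1 lower of 20. Of 15 transducers 4 were higher, Map2k1 among them, and 2 lower, and of 5 induced factors 1 was higher and 1 lower. Of 12 cofactors 1 was higher and 1 lower, and of the 7 receptors and 8 feedback inhibitors 0 differed either way.

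Among the EPDC libraries, 21 regions had a peak in both E13.5 libraries and none in the E12.5 library (15.6% of 135 called in EPDCs, against 12.7% of all), and 3 had the reverse (2.22%, against 4.20%). With 1 library at E12.5 there is no test of the stage. The difference was visible at Fgf1, whose window held 12 summits at E12.5 and 23 and 26 at E13.5, for example at 39.1 kb into the gene, where the E12.5 library had no peak and the E13.5 libraries were at 58.2 and 65.6. The Fgf2 region at 31.7 kb showed the same order. E13.5 EPDC sample 2 also had the highest background.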

How the data were processed

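Bulk ATAC-seq peak lists of 9 libraries from 10 samples were used, 1 list for each library, the 2 technical replicates of E13.5 EPDC sample 2 sharing 1. According to the methods 40 bp reads were aligned to mm10 by the authors (nf-core atacseq), duplicate, mitochondrial and blacklisted reads were discarded, and MACS2 2.2.9.1 was run on paired fragments (q 0.01), with summits kept. The deposited −log10 p and −log10 q values, and the deposited ratio of signal to background (fold enrichment), were not normalized between libraries. The edgeR test of the study needs reads and was not used here. The members and gene lists were chosen with earlier results of these data known.

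Summits on chromosomes 1 to 19, X and Y were widened by 250 bp on each side, and overlapping windows removed in order of depth-normalized score. Gene spans and starts came from RefSeq GRCm38.p6 (mm10), because the GENCODE M21 span of Fgfr2 is drawn out by 1 long transcript. A region's value was the rank percentile by −log10 p. Fragments were solved from fold enrichment and p at every summit (100% solved), and counting error sets their precision. A difference was called where groups did not overlap. Exact two-sided permutation tests (20 assignments for 3 against 3 libraries, 84 for 3 against 6) were adjusted by Benjamini-Hochberg over all features, and limma 3.58.1 (R 4.3.3) tested log2 scores (pseudocount 1) over all regions. Alternatives were a −log10 q of at least 5, equal numbers of top summits, rank by fold enrichment, log2 scores, interval overlap, regions called in at least 2 libraries, windows of 10 and 50 kb, any annotated start, each library left out, and a replicate block. Scripts were tested on simulated data (Python 3). Named were the promoter and strongest other region of each gene, by mean over the 9 libraries, and the 5 largest non-overlapping differences in each direction and comparison. For the wider pathway the 3 largest promoter differences were named, and other regions were added after their values were seen. The p-values measure the spread between these libraries, except that a group without any peak entered limma at 0 and without spread. Promoter sequences were not printed.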

Additional observations from a re-analysis of the deposited data

How the results depend on the processing

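The counts of regions within 25 kb of the 10 genes depended on the scale, the test and the libraries, and in each case the cause was not tested. In the stage comparison, 37 were higher and 52 lower of 206 with windows of 50 kb (18% and 25.2%), and 23 were lower with equal numbers of top summits, 22 by limma, and 7 by fragments over background. In EPDCs, 5 were higher by fragments over background, 33 by limma, 13 of 141 within 10 kb (9.22%) and 38 against E17.5 epicardium alone, and 34 were lower by limma, 32 against E11.5 epicardium alone and 27 against E17.5 epicardium alone. Windows of 10 and 50 kb change the number of regions counted. Leaving out each library in turn gave 25 to 37 higher and 37 to 45 lower regions at E17.5 (13.7% to 19.4% and 32.3% to 41.1% of all regions). In EPDCs it gave 21 to 41 higher and 13 to 19 lower (9.5% to 17% and 8.32% to 12.3% of all). Gene windows separated in 4 to 7 cases at E17.5, where 32.2% to 37% of all windows were higher and 17.1% to 18.1% lower. In EPDCs 0 to 2 did, where 6.39% to 9.35% were higher and 8.87% to 15.4% lower. Separated promoters numbered 5 to 7 at E17.5 and 1 in EPDCs, and the shares of all promoters given above do not apply to these counts. Fewer libraries in a group make non-overlap easier. With equal numbers of top summits, or with intervals in place of summits, 1 gene window was separated in EPDCs where 0 were otherwise. The other count alternatives stayed within 1.5 times of the reported values.

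Of the 274 values under alternatives of the 20 regions with the largest differences, 272 kept their direction and their call. The Fgf1 region 11465 bp from the 5′ end turned to −0.25 with overlap of intervals, and the Fgf2 region at 18.4 kb overlapped under that setting. The Fgf1 promoter in EPDCs turned to −10.41 with any annotated start. Of the other promoter values, 219 kept direction and call, 6 became calls, and 4 lost theirs: Fgf9 with a −log10 q of at least 5 and with any annotated start, and Fgf10 and Fgfr1 by rank of fold enrichment. For same-numbered E11.5 and E17.5 libraries the correlations of their deviations over 57768 regions were 0.03, 0.09 and −0.05. Whether libraries of the same number shared a batch was not tested. With a replicate block, requiring that all same-numbered pairs change one way, 33 regions were higher and 43 lower, with 6 gene windows and 7 promoters. Limma with a replicate block gave 26 and 24. The first rule is looser than non-overlap, and the shares of all features given above do not apply to the counts of either. The fragment background of the lists ran from 2.07 to 10.9, and its part in the presence of weak peaks was not tested.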
